A study of Mus musculus with 6 samples.

Results

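The nuclear genes of oxidative phosphorylation (OXPHOS) were examined in chromatin profiles of mouse macrophages. They were chosen by symbol alone among protein-coding nuclear genes of GRCm38: Nduf followed by a, b, c, s or v and a digit, Sdha to Sdhd, any symbol that starts with Uqcr or Atp5, and Cox followed by a digit from 4 to 8. The rule gave 84 of 21911 genes, with 37 named for complex I, 4 for complex II, 8 for complex III, 18 for complex IV and 17 for complex V. A rule on names is not exact. It places Ndufa4, now known as a subunit of complex IV, with complex I, it takes in Cox7a2l and Atp5s, which are not counted among the core enzyme subunits, and it leaves out Ndufab1.

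Complexes I to IV form the respiratory chain of the inner mitochondrial membrane. They pass electrons from NADH and succinate to oxygen, complexes I, III and IV pump protons on the way, and complex V, the ATP synthase, uses the proton gradient to make ATP. All subunits of complex II and most of the others are encoded in the nucleus, from housekeeping promoters that are known to bind NRF1, the ETS factor GABP, YY1 and SP1. Macrophages activated with lipopolysaccharide (LPS) are known to shift from oxidative phosphorylation towards glycolysis over hours.

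Bone marrow-derived macrophages (BMDMs) of C57BL/6 mice, grown in L929-conditioned medium, received LPS or PBS for 1 h. According to the methods, the study used male mice aged 7 to 10 weeks. How many mice gave the cells of a library is not given in the sources used here. CUT&RUN releases the DNA around an antibody-bound histone mark with a tethered nuclease. There were 6 libraries, 1 for each treatment with antibodies to H3K27ac, a mark of active promoters and enhancers, to H3K4me1, a mark of enhancers and promoter flanks, and with control IgG. The 4 histone libraries have a peak list. The 2 IgG libraries were used in no comparison. With 1 library per group no value below has a replicate error, no test between LPS and PBS was possible, and a difference between lists describes a pair of libraries.

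The lists held 4200 H3K27ac peaks under LPS and 52 under PBS, and 73049 and 64758 H3K4me1 peaks. They give no read totals. The number of fragments at a summit could be recovered from the deposited values, and its median was 9 and 11 in the LPS and PBS H3K27ac lists and 17 in both H3K4me1 lists. Of 12 macrophage marker genes, 12 had an LPS and 11 a PBS H3K4me1 peak within 10 kb of the transcription start site (TSS). Of 10 markers of other cell types 4 and 3 did, and of all coding genes 47.6% and 41.0%. The H3K27ac lists held few of the macrophage markers. LPS H3K27ac was within 10 kb of 3 and within 1 kb of 1 of the 12, beside 8.91% and 5.0% of all coding genes. It was within 10 kb of 0 of the 10 other markers. PBS H3K27ac was within 10 kb of 0 of the 12. With 52 peaks in the PBS H3K27ac list, absence from it holds for nearly every gene.

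H3K27ac was found at few OXPHOS promoters. Under LPS 9 of 84 genes (10.7%, 95% Wilson interval 5.74 to 19.1%) had H3K27ac within 1 kb of the TSS, where 5.0% of all coding genes did. Under PBS 1 gene, Sdhc, had it (1.19%, 0.21 to 6.44%), where 0.073% of coding genes did. The intervals cover counting error over genes only. Members of the set are not replicates, and no test was made.

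OXPHOS promoters are richer in CpG than most. Of the 84, 48 (57.1%) had a CpG-rich promoter, defined as a GC content of at least 50% and an observed over expected CpG of at least 0.6 in the 300 bp from 250 before to 50 after the TSS. This compares with 41.3% of all coding genes. Among the 9043 coding genes with such promoters the shares were 7.97% under LPS and 0.155% under PBS. The interval of the OXPHOS share under LPS lay above the value of all coding genes and included that of the CpG-rich genes. With peaks kept only where the gene's own TSS was the nearest coding one, 5 OXPHOS genes (5.95%) and 4.33% of all coding genes had LPS H3K27ac. When peaks were held to a −log10 q of at least 5, 3 OXPHOS genes and 1.89% of all coding genes were left.

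**Figure D1:**
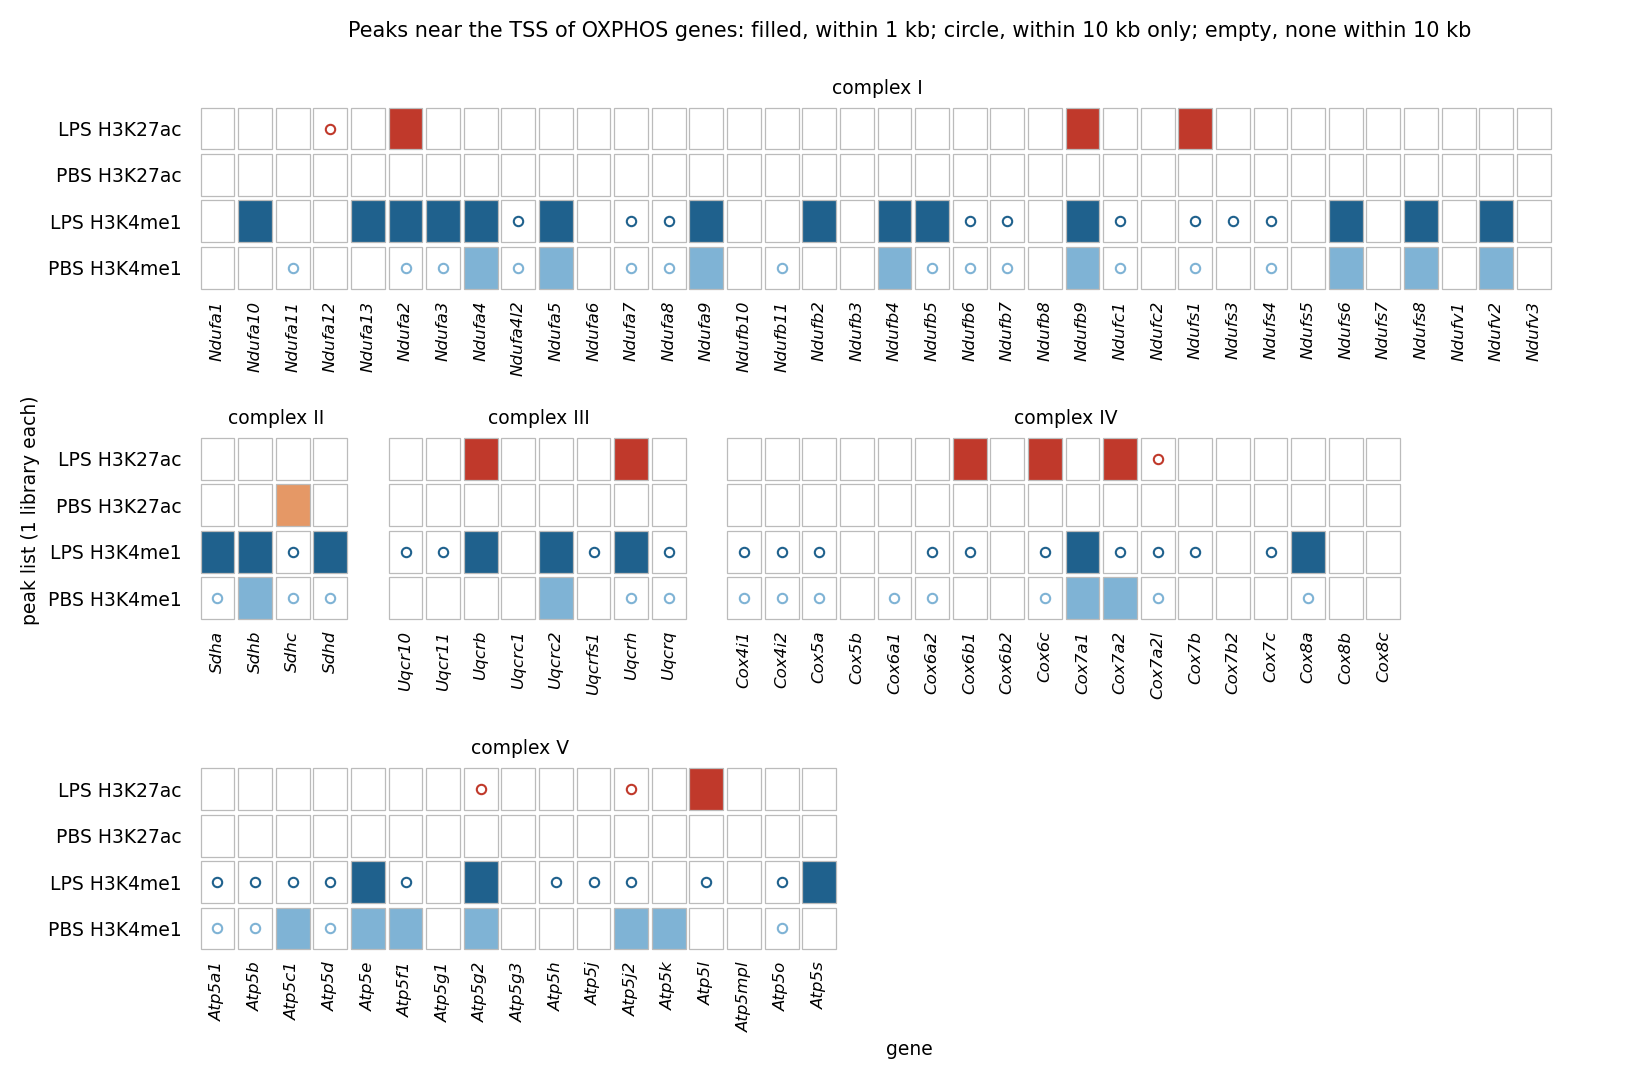
OXPHOS genes, 83 of the 84 (columns, grouped by the complex their name gives), in each of the 4 peak lists (rows, 1 library each). A filled square is a peak within 1 kb of the TSS, an open circle a peak within 10 kb but not 1 kb, and an empty square no peak within 10 kb. Filled H3K27ac squares are 9 under LPS and 1 under PBS, beside 5.0% and 0.073% of all coding genes. None is shared, but with 52 peaks in the PBS list hardly any gene could be.

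The 9 genes with LPS H3K27ac were spread over complexes I, III, IV and V, with 3 of 37, 2 of 8, 3 of 18 and 1 of 17 genes, and 0 of 4 for complex II. In complex I, Ndufa2, an accessory subunit, had the strongest peak of the set. Its fold enrichment, which sets the fragments at the summit against the local background, was 9.49. The −log10 q was 11.7, with 18 fragments and rank 54 of the 4200 LPS peaks. The summit lay 296 bp before the Ndufa2 TSS and 197 bp from the TSS of Ik, the divergent neighbour, so the peak is not assigned to Ndufa2 by distance. Ndufb9, another accessory subunit, had a weak peak at chr15:58933344-58933552, 209 bp before its TSS, with a −log10 q of 2.13, a fold enrichment of 3.99 and 9 fragments. Here too a divergent gene, Tatdn1, was the nearer one, at 191 bp. Ndufs1, the largest iron-sulphur core subunit of complex I, had a peak at chr1:63176482-63176659 with its summit 234 bp into the gene, a −log10 q of 3.50, a fold enrichment of 4.66 and 13 fragments. Its summit was 226 bp from the TSS of Eef1b2, which codes for a translation elongation factor subunit. All 3 complex I peaks therefore lay nearer to another coding TSS than to that of the OXPHOS gene.

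In complex III the peaks fell at small subunits. Uqcrh, the hinge protein of the complex, had a pair of peaks that flanked its TSS without covering it. The peak at chr4:116074878-116074998 had its summit 149 bp after the TSS, a −log10 q of 3.87, a fold enrichment of 5.49 and 10 fragments. The peak at chr4:116075183-116075322 had its summit 219 bp before the TSS, a −log10 q of 5.52, a fold enrichment of 6.47 and 12 fragments, and lay 21 bp from the TSS of the divergent gene Lrrc41. Uqcrb, the ubiquinone-binding subunit, had a peak at chr13:66904822-66905012 with its summit 380 bp after the TSS, a −log10 q of 4.34, a fold enrichment of 6.10 and 8 fragments. The gene model Gm10767 started 84 bp from that summit.

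In complex IV, cytochrome c oxidase, the peaks were at Cox6b1, Cox6c and Cox7a2, nuclear-encoded subunits of the form found in most tissues. Each lay inside its own gene, and no other coding TSS was nearer. The Cox6b1 peak at chr7:30625929-30626075 had its summit 176 bp after the TSS, a −log10 q of 5.03, a fold enrichment of 6.42 and 10 fragments. The Cox6c peak at chr15:35937951-35938109 (255 bp after the TSS) and the Cox7a2 peak at chr9:79759550-79759686 (327 bp after) were near the lower end of the list, with −log10 q of 2.22 and 2.13 and ranks of 3710 and 4082. In complex V, Atp5l, subunit g of the membrane part of the ATP synthase, had the widest peak, 389 bp at chr9:44920375-44920763. It was the only one of the 10 LPS H3K27ac peaks that covered the TSS, with its summit 106 bp after it, a −log10 q of 3.23, a fold enrichment of 4.28 and 14 fragments.

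In all, 7 of the 10 peaks had their summit after the TSS, by 106 to 380 bp, and 3 before it, by 209 to 296 bp. No summit fell within 100 bp of the OXPHOS gene's own TSS. Among the 1200 LPS H3K27ac summits assigned to all coding genes in the same way, 3.75% fell in the 100 bp before and 7.0% in the 100 bp after the TSS. Of the 10 peaks, 5 had the OXPHOS gene as the nearest coding gene. Their values were those of ordinary peaks of this list: the median fold enrichment was 5.07 against 5.59 for LPS H3K27ac peaks within 1 kb of any coding TSS, the median −log10 q 3.69 against 4.15, and the median number of fragments 11 in both.

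Within 10 kb, 14 OXPHOS genes (16.7%, 10.2 to 26.1%) had LPS H3K27ac, against 8.91% of all coding genes and 12.5% of CpG-rich ones. The wider window added 5 genes, among them Atp5g2, Atp5j2, Cox7a2l and Ndufa12. The Atp5g2 peak was in an intron, 1378 bp after the TSS, and weak, with a −log10 q of 2.61. The Atp5j2 peak had a −log10 q of 6.67 but lay 118 bp from the TSS of Zkscan14. The Cox7a2l and Ndufa12 peaks were in introns of these genes, 2804 and 8141 bp after the TSS, with −log10 q of 3.62 and 5.02. The PBS list added no OXPHOS gene at this distance, with 1 gene in 84 against 0.155% of coding genes. OXPHOS genes have close neighbours, which bears on the wider window: the mean number of other coding TSSs within 10 kb was 0.75, against 0.384 over all coding genes and 0.442 over CpG-rich ones. Its part in the counts was not tested.

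**Figure D2:**
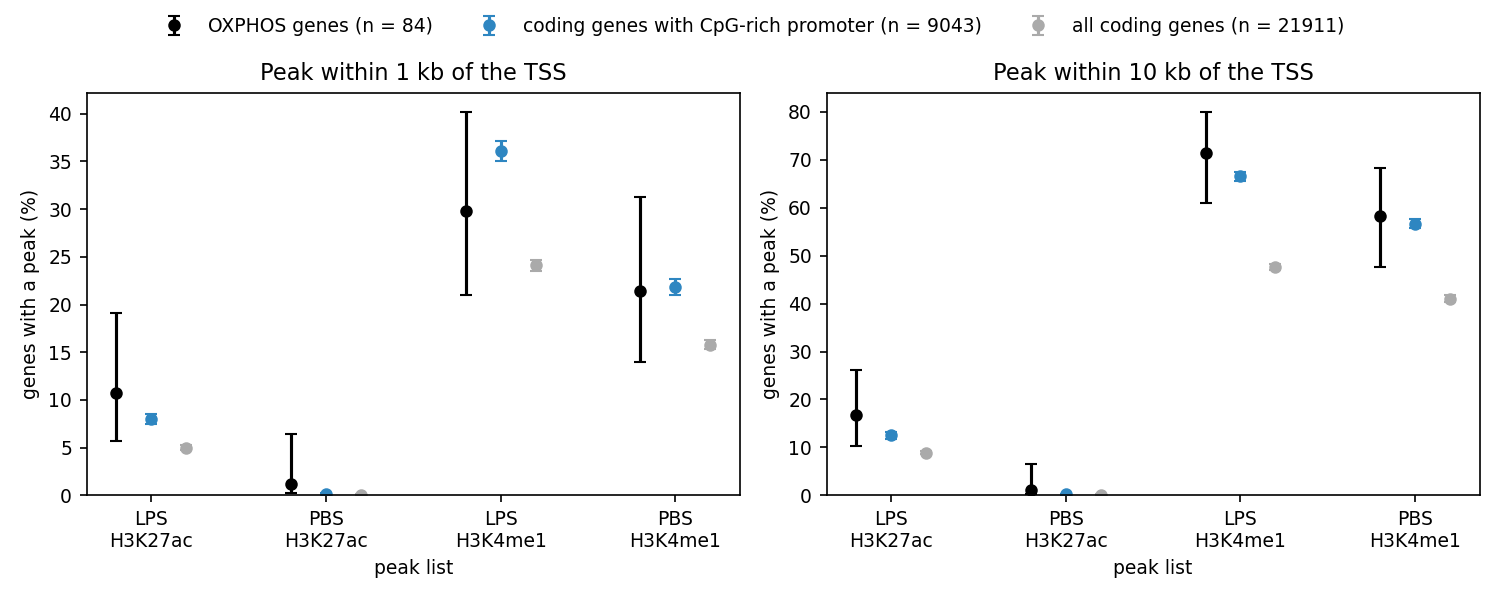
Percentage of genes whose TSS has a peak within 1 kb (left) or 10 kb (right), by peak list, for the 84 OXPHOS genes, the 9043 coding genes with a CpG-rich promoter and all 21911 coding genes. Points are shares and bars 95% Wilson intervals over genes. In all 4 lists at both distances the OXPHOS share is above that of all coding genes, and at 1 kb the LPS H3K4me1 share (29.8%) is below that of CpG-rich genes (36.1%).

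The single PBS H3K27ac peak near an OXPHOS gene, at Sdhc, was at the top of its list. Sdhc codes for a membrane anchor of complex II, the succinate dehydrogenase that also serves in the citric acid cycle. The peak, at chr1:171150405-171150550, was the first of 52 by −log10 q (6.18), with a fold enrichment of 9.51 and 14 fragments at the summit. The summit lay 99 bp after the TSS in an untranslated exon, and no other coding TSS was nearer. The LPS H3K27ac list had its nearest peak 81513 bp away. H3K4me1 was not called within 1 kb either, the nearest peak being 2326 bp away under LPS and 5661 bp under PBS. The intronic part of the Sdhc peak is shown because it is from the one OXPHOS gene with H3K27ac called under PBS, and it had 68.0% GC and no match to any of the motifs searched below:
Sdhc (chr1:171150405-171150479, minus strand): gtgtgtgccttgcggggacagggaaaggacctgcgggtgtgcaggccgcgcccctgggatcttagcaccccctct

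Sequence was compared among promoters by 4 motifs, searched on both strands in the 300 bp promoters: GCGCANGCG for NRF1, CCGGAAG for ETS factors such as GABP, AAGATGGCG for YY1 and GGGCGG for SP and KLF factors. The motifs do not contain one another. A match is a match of letters and not a binding site. The NRF1 letters were in 15 OXPHOS promoters (17.9%), the ETS letters in 16 (19.0%), the YY1 letters in 3 (3.57%) and the GC box in 33 (39.3%). All coding genes had 8.29%, 10.8%, 1.69% and 43.0%, and coding genes with CpG-rich promoters 17.3%, 19.7%, 3.36% and 75.8%. NRF1, ETS and YY1 matches were thus near the level of CpG-rich promoters although only 57.1% of OXPHOS promoters are CpG-rich, and GC boxes were below the level of all genes.

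LPS H3K27ac within 1 kb was found at 5 of the 16 OXPHOS genes with an ETS match (31.2%) and at 4 of the 68 without (5.88%). All coding genes had it in 10.5% with and 4.34% without the match, and CpG-rich genes in 11.6% and 7.08%. The direction was the same in the 3 sets. This split was singled out after the values were seen, rests on 9 genes and was not tested. With peaks held to a −log10 q of at least 5 it was 2 of 16 against 1 of 68. For the NRF1 match the counts were 1 of 15 genes with and 8 of 69 without it, beside 7.87% and 4.74% of all coding genes and 8.44% and 7.88% of CpG-rich ones. H3K4me1 within 1 kb was at 6 of 16 genes with the ETS match and 19 of 68 without under LPS, beside 34.3% and 22.9% of all coding genes and 36.9% and 35.9% of CpG-rich ones. Under PBS it was at 3 of 16 and 15 of 68, beside 21.8% and 15.0% of all coding genes and 22.9% and 21.5% of CpG-rich ones.

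The 5 genes are Ndufb9, Ndufs1, Uqcrh, Cox6b1 and Atp5l. The ETS match nearest to the TSS of each is shown with 11 bases on either side, in the direction of the gene and with the match in capitals (CTTCCGG, the reverse strand of CCGGAAG):
Ndufb9 (chr15:58933747-58933775, plus strand): gcacgctcgtcCTTCCGGttccgcctcac
Ndufs1 (chr1:63176821-63176849, minus strand): ggcctcggctaCTTCCGGcggaactgcag
Uqcrh (chr4:116075063-116075091, minus strand): agtatgccgcaCTTCCGGccaggtcgccg
Cox6b1 (chr7:30626125-30626153, minus strand): tcctctcgcagCTTCCGGccagtcggaat
Atp5l (chr9:44920701-44920729, minus strand): tgccgcgggtcCTTCCGGgggtgacattc

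These matches began 2 bp after the TSS in Ndufb9, 5 bp before it in Ndufs1, 9 bp before in Uqcrh, 9 bp after in Cox6b1 and 24 bp after in Atp5l, counting the TSS as 0. Ndufb9 held a further match 29 bp after and Atp5l one 212 bp before the TSS. The Atp5l match near the TSS was inside its H3K27ac peak. The printed match of Uqcrh fell between both of its peaks, and those of Ndufb9, Ndufs1 and Cox6b1 lay outside the peak. Cox6b1 had another copy of these letters in the intronic part of its peak, which is shown with that copy in capitals:
Cox6b1 (chr7:30625929-30626050, minus strand): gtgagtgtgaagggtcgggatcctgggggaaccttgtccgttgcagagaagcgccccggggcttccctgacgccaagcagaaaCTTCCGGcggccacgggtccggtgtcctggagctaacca

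For contrast, the part outside exons of the stronger Uqcrh peak, the one before the TSS, held none of the motifs and had 37.2% GC:
Uqcrh (chr4:116075183-116075268, minus strand): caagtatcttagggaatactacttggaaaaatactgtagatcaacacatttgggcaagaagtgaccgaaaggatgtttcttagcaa

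**Figure D3:**
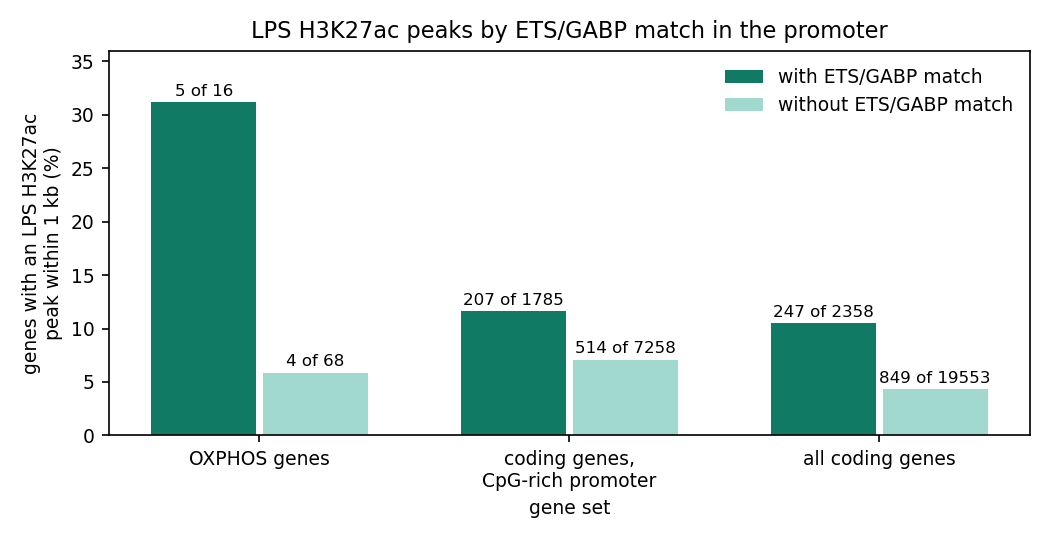
Percentage of genes (bars from 0) that had LPS H3K27ac within 1 kb, split by whether the 300 bp promoter holds the ETS letters. Numbers above the bars are genes with a peak of genes in the class. The OXPHOS bars are 31.2% (5 of 16) and 5.88% (4 of 68), and the bars of the wider gene sets differ in the same direction by less.

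H3K4me1 was more common. Under LPS 25 OXPHOS genes (29.8%, 21.0 to 40.2%) had an H3K4me1 peak within 1 kb, and under PBS 18 (21.4%, 14.0 to 31.3%). All coding genes had 24.1% and 15.8%, and CpG-rich genes 36.1% and 21.8%. Within 10 kb the counts were 60 (71.4%, 61.0 to 80.0%) and 49 (58.3%, 47.7 to 68.3%), against 47.6% and 41.0% of all coding genes and 66.6% and 56.7% of CpG-rich ones. At 1 kb the OXPHOS intervals include the values of all genes, and at 10 kb they lie above them. Against CpG-rich genes they were lower at 1 kb and slightly higher at 10 kb, with intervals that include the CpG-rich values.

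By complex, LPS H3K4me1 within 1 kb was found at 14 of 37 genes of complex I, 3 of 4 of complex II, 3 of 8 of complex III, 2 of 18 of complex IV and 3 of 17 of complex V. Under PBS the counts were 8, 1, 1, 2 and 6. All coding genes had 24.1% under LPS and 15.8% under PBS. Within 1 kb complex V was the one group with more genes under PBS than under LPS. At that distance complexes I to III had more under LPS, and complex IV had equal numbers. Within 10 kb the order was not kept in complex V, with 13 of 17 genes under LPS and 10 under PBS.

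Of the 84 genes, 13 (15.5%) had H3K4me1 within 1 kb in both lists, 12 (14.3%) in the LPS list alone, 5 (5.95%) in the PBS list alone and 54 (64.3%) in neither. The background was 10.9% for both lists, 13.2% for LPS alone, 4.88% for PBS alone and 71.0% for neither. CpG-rich genes had 14.4%, 21.7%, 7.42% and 56.5%. LPS-alone genes were thus near the background of all genes and below that of CpG-rich genes. The 13 genes with both were Atp5e, Atp5g2, Cox7a1, Ndufa4, Ndufa5, Ndufa9, Ndufb4, Ndufb9, Ndufs6, Ndufs8, Ndufv2, Sdhb and Uqcrc2. In 11 of them a peak of one list overlapped one of the other, and in Ndufs6 and Uqcrc2 it did not.

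The 12 genes with LPS H3K4me1 alone were Ndufa2, Ndufa3, Ndufa10, Ndufa13, Ndufb2, Ndufb5, Sdha, Sdhd, Uqcrb, Uqcrh, Cox8a and Atp5s. A gene counted as LPS alone was often not free of H3K4me1 under PBS. In 2 of the 12, Ndufb5 and Sdha, an LPS peak within 1 kb overlapped a PBS peak that began beyond it. In all, 4 of the 12 had a PBS peak within 2000 bp and 7 within 10 kb, with a median distance of 7810 bp and a range of 1144 to 89605 bp. The 5 PBS-alone genes were all of complex V but for Cox7a2: Atp5c1, Atp5f1, Atp5j2 and Atp5k, which code for the gamma subunit of the central shaft, subunit b of the stator, and the membrane subunits f and e. Their nearest LPS peak was 1112 to 12646 bp away (median 1880 bp), within 2000 bp in 3. Ndufa2 was the one gene found in a single list whose peak ranked above the upper quartile of that list (rank 14180 of 73049).

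Complex II can be followed whole. Sdha, the flavoprotein that oxidises succinate, had an LPS H3K4me1 peak over its TSS, at chr13:74350042-74350384, with a −log10 q of 6.45 and a fold enrichment of 6.47. Its second LPS peak within 1 kb, at chr13:74347787-74349361, overlapped a PBS peak whose near edge was 1144 bp from the TSS. Sdhb, the iron-sulphur subunit, had peaks over the TSS in both lists, with a −log10 q of 5.51 and 21 fragments under LPS and 6.33 and 21 fragments under PBS. Sdhd, the smaller membrane anchor, had an LPS peak over the TSS with a −log10 q of 5.24 and 12 fragments, and its nearest PBS peak was 1884 bp away. None of these 3 genes had H3K27ac within 1 kb, and Sdhc, described above, had H3K27ac without H3K4me1.

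Within 1 kb the strongest LPS H3K4me1 peaks were at Ndufs8, Ndufa5, Atp5e, Ndufa2 and Ndufb2. Ndufs8, an iron-sulphur core subunit of complex I, had 3 LPS peaks within 1 kb. The strongest was 2500 bp wide, at chr19:3913663-3916162, with its edge 889 bp before the TSS, a −log10 q of 12.6, a fold enrichment of 9.60 and rank 8192 of 73049. The Ndufa5 peak had its summit 417 bp into the gene, with a −log10 q of 11.3 and a fold enrichment of 9.27. The Atp5e peak, at the gene of the epsilon subunit, had 38 fragments at the summit, the most of the 34 peaks, for a −log10 q of 10.1 and a fold enrichment of 6.96. Ndufa2 had a −log10 q of 9.96, with the summit 31 bp before the TSS, and Ndufb2 one of 7.75 with the summit 108 bp after it.

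Under PBS the strongest H3K4me1 peaks within 1 kb were at Atp5g2, Sdhb, Cox7a2, Ndufa4 and Atp5c1. Atp5g2 codes for one of the isoforms of subunit c, which makes up the rotor ring of the ATP synthase. Its peak had a −log10 q of 8.33, a fold enrichment of 7.50, 17 fragments and rank 16583 of 64758, and its summit was 461 bp into the gene. Under LPS the overlapping Atp5g2 peak was among the weaker ones of its list, with a −log10 q of 2.91 and 15 fragments. Cox7a2 had a PBS peak over the TSS with a −log10 q of 5.76 and 27 fragments, and its LPS H3K27ac peak began on the gene side of it. Ndufa4 had a −log10 q of 5.67 and Atp5c1 one of 5.37, the latter with its summit 9 bp after the TSS.

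**Figure D4:**
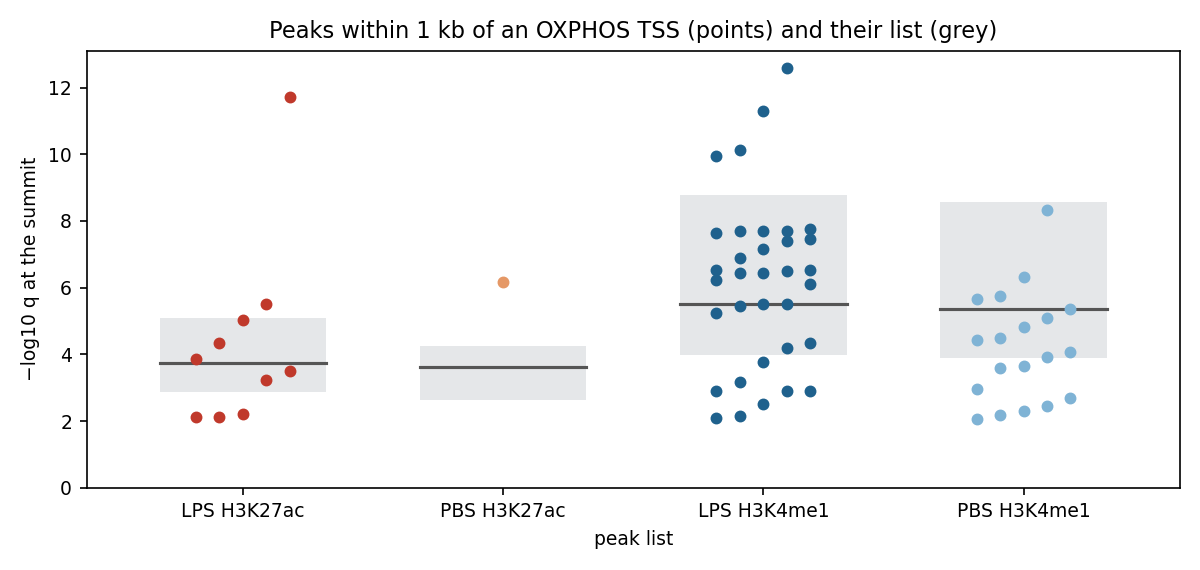
−log10 q at the summit (vertical axis) of each peak within 1 kb of an OXPHOS TSS, by peak list. The grey box spans the interquartile range of all peaks of that list and the line is their median. Values are not comparable between lists. The Ndufa2 peak (11.7) stands above the others in LPS H3K27ac, and of the PBS H3K4me1 peaks most lie below the list median of 5.37.

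The peaks near OXPHOS genes were on the strong side of the LPS H3K4me1 list and on the weak side of the PBS list. For the 34 LPS peaks within 1 kb the median −log10 q was 6.45, against 5.15 for peaks near any coding TSS and 5.51 for the list. For the 19 PBS peaks it was 4.06, against 4.92 and 5.37. The median number of fragments at the summit was 17 and 16. The OXPHOS genes with a PBS H3K4me1 peak fell to 6 when a −log10 q of at least 5 was required, and all coding genes to 8.29%. Those with an H3K4me1 peak in both lists fell to 2. Under the same limit 19 of 84 OXPHOS genes kept an LPS H3K4me1 peak within 1 kb (from 25). All coding genes with one fell to 13.4% (from 24.1%). The OXPHOS genes with H3K4me1 in the LPS list alone rose from 12 to 17.

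H3K4me1 covered the TSS of 14 OXPHOS genes (16.7%) under LPS and of 8 (9.52%) under PBS, where it covered 9.69% and 5.87% of all coding TSSs and 15.0% and 8.03% of CpG-rich ones. Under LPS, 9 of 27 summits within 1 kb (33.3%) lay in the 100 bp before the TSS, where 17.2% of the 5751 summits near all coding genes did. Under PBS the same bin held 3 of 17 (17.6%) against 18.6% of 3628.

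**Figure D5:**
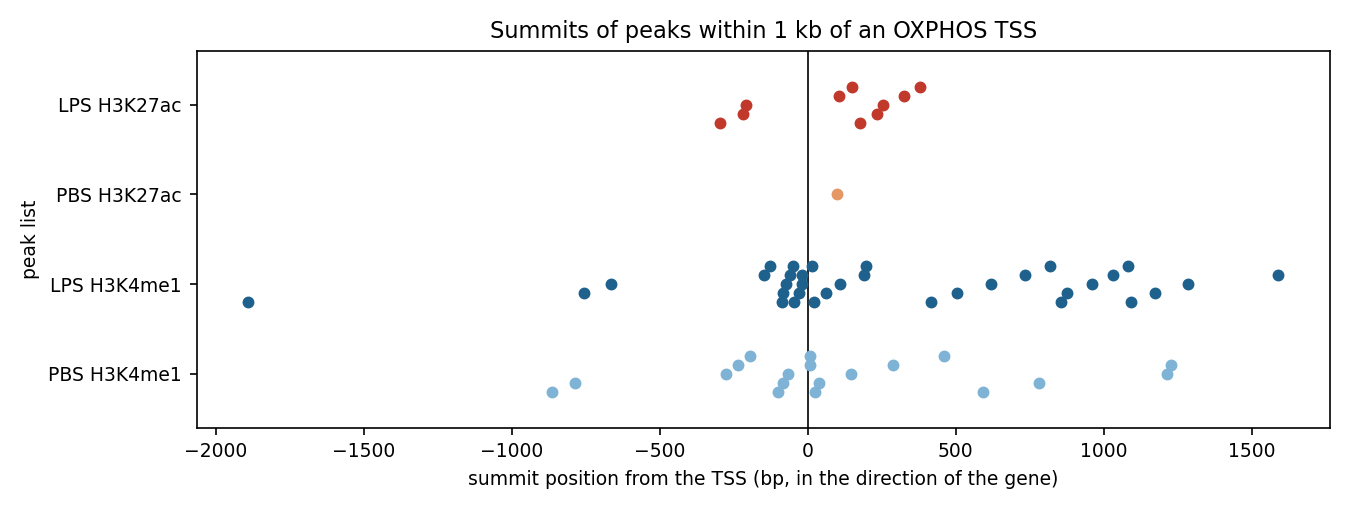
Position of the summit (bp from the TSS, positive in the direction of the gene) of each peak within 1 kb of an OXPHOS TSS, by peak list. Points are shifted vertically for legibility. LPS H3K27ac summits lie 106 to 380 bp after or 209 to 296 bp before the TSS. Of the 27 LPS H3K4me1 summits within 1 kb, 13 lie before the TSS, 9 of them in the last 100 bp, and 14 after it.

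Both marks together were rare. LPS H3K27ac and H3K4me1 of either list lay within 1 kb at 5 genes (5.95%), where 2.6% of all coding genes and 3.89% of CpG-rich genes had both: Ndufa2, Ndufb9, Uqcrb, Uqcrh and Cox7a2. The other 4 genes with LPS H3K27ac, Ndufs1, Cox6b1, Cox6c and Atp5l, had no H3K4me1 within 1 kb, with the nearest peak under LPS at 1507, 1103, 1376 and 4288 bp. Any peak of the 4 lists was found within 1 kb at 35 genes (41.7%), against 31.4% of all coding genes, and within 10 kb at 65 (77.4%), against 52.4%. CpG-rich genes had 47.7% and 72.8%.

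The remaining 19 genes had no peak of any list within 10 kb. In complex I they were Ndufa1, Ndufa6, Ndufb3, Ndufb8, Ndufb10, Ndufc2, Ndufs5, Ndufs7, Ndufv1 and Ndufv3, which include Ndufv1, the subunit that takes up electrons from NADH. In complex III it was Uqcrc1, in complex IV Cox5b, Cox6b2, Cox7b2, Cox8b and Cox8c, and in complex V Atp5g1, Atp5g3 and Atp5mpl. Subunits needed in every cell are among them, and absence of a called peak at this depth does not show absence of the mark. Other central subunits had their nearest H3K4me1 peak beyond 1 kb: the Rieske protein gene Uqcrfs1 at 1123 bp under LPS and 36706 bp under PBS, Cox4i1 at 1506 bp under LPS and 1912 bp under PBS, Cox5a at 2521 and 3299 bp, and Atp5b, the catalytic subunit of the ATP synthase, at 1025 and 7720 bp.

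The set holds 8 isoforms known mainly from other tissues or conditions: Cox4i2, Cox6a2, Cox6b2, Cox7a1, Cox7b2, Cox8b, Cox8c and Ndufa4l2. H3K27ac was within 10 kb of 0 of the 8, beside 8.91% of all coding genes, and a peak of any list within 10 kb of 4, beside 52.4%. Cox7a1, the isoform of heart and skeletal muscle, was the 1 of the 8 with a peak within 1 kb, and had H3K4me1 over its TSS in both lists. The LPS peak, at chr7:30184051-30184331, had a −log10 q of 6.12 and the PBS peak, which ends at the same base, one of 4.82. The ubiquitous isoform Cox7a2 had an H3K4me1 peak within 1 kb under PBS only.

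A feature the choice by name did not use was the arrangement of genes. Of the 84, 19 (22.6%) had a divergent coding gene starting within 1 kb upstream, against 6.76% of all coding genes and 13.4% of CpG-rich ones. Examples are Ndufa2 with Ik, Sdha with Ccdc127, Sdhd with Timm8b, itself a gene of mitochondrial protein import, and Uqcrh with Lrrc41. LPS H3K4me1 within 1 kb was found at 8 of the 19 (42.1%) and at 17 of the other 65 (26.2%), and LPS H3K27ac at 3 of 19 (15.8%) and 6 of 65 (9.23%). All coding genes with and without a divergent partner had 36.5% and 23.2% for LPS H3K4me1 and 11.7% and 4.51% for LPS H3K27ac, a difference in the same direction. Among CpG-rich genes the differences were smaller, with 39.0% and 35.7% for LPS H3K4me1 and 11.8% and 7.38% for LPS H3K27ac. The part of the gene arrangement was not tested. For PBS H3K4me1 the counts were 4 of 19 (21.1%) and 14 of 65 (21.5%), beside 20.7% and 15.4%. A mark at a shared promoter cannot be assigned to one of the genes.

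Genes that serve the same complexes were described in the same way. Of 46 assembly factors, proteins that build the complexes without being part of them, 5 (10.9%) had LPS H3K27ac within 1 kb, 0 had PBS H3K27ac, 18 (39.1%) had LPS H3K4me1 and 14 (30.4%) PBS H3K4me1. The 5 were Foxred1 for complex I, Sdhaf2 and Sdhaf3 for complex II, Bcs1l, which inserts the Rieske protein into complex III, and Cox20 for complex IV. Of 13 regulators of these genes, 1 had LPS H3K27ac within 1 kb, Gabpb1, the partner of the ETS factor GABPA, and 4 had LPS and 3 PBS H3K4me1. Gabpb1 itself had no H3K4me1 within 1 kb. For comparison with both groups, LPS and PBS H3K27ac were within 1 kb of 5.0% and 0.073% of all coding genes. The shares of CpG-rich genes were 7.97% and 0.155%. LPS and PBS H3K4me1 were within 1 kb of 24.1% and 15.8% of all coding genes and 36.1% and 21.8% of CpG-rich ones.

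Other large housekeeping sets gave similar H3K27ac shares. LPS H3K27ac was within 1 kb of 10 of 92 cytosolic ribosomal protein genes (10.9%) and of 3 of 23 genes of the V-ATPase (13.0%), the proton pump of lysosomes. LPS H3K4me1 was within 1 kb of 25 of 92 ribosomal protein genes (27.2%) and 3 of 23 V-ATPase genes (13.0%), and PBS H3K4me1 of 11 and 2. Within 10 kb LPS and PBS H3K4me1 was at 78.3% and 60.9% of V-ATPase, 60.9% and 44.6% of ribosomal protein and 71.4% and 58.3% of OXPHOS genes. All coding genes had LPS H3K27ac within 1 kb in 5.0%. They had LPS and PBS H3K4me1 in 24.1% and 15.8% within 1 kb and 47.6% and 41.0% within 10 kb.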

How the data were processed

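CUT&RUN libraries of BMDMs were analysed from the peak lists of 4 libraries. The authors aligned trimmed read pairs to GRCm38 (Bowtie2 2.4.4), removed blacklisted regions and called peaks in each library with MACS2 2.2.7.1, without pooling. Which control each list used is not given in the sources used here. The fold enrichment, a ratio, and the −log10 of p and of q at the summit are the authors' deposited values; the deposited score was not used. These values depend on depth and control and were not compared between lists. The smallest deposited −log10 q was 2.0. Fragments at a summit were recovered from fold enrichment and p, which returned the deposited p within 0.002 (−log10) for at least 99.9% of peaks of each list.

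TSSs were the 5′ ends of gene records of GENCODE M21, in the build of the lists but another release than the authors used. A symbol with several records, the case for 27 symbols, was kept once. A peak was within a window when it overlapped it by at least 1 bp. Sequences were read from RefSeq GRCm38.p6. Python with numpy 2.4.6, pandas 2.3.3, scipy 1.17.1 and pysam 0.24.0 was used, and the peak assignment and the fragment recovery were checked on simulated data. The comparison with randomly drawn genes was replaced by all coding genes.

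Named genes were those with H3K27ac within 1 kb, the 5 with the highest −log10 q in each H3K4me1 list, those found in a single H3K4me1 list with a peak above its upper quartile, those with no peak within 10 kb, central subunits and tissue-restricted isoforms. Genes of other classes are named beside a count, and 1 gene of the set is not reported here by name. The gene set and all lists were chosen with earlier results of these data known. Limits on −log10 q and fold enrichment, other windows, summits, transcript starts, members, backgrounds and list lengths were tried as alternatives.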

Additional observations from a re-analysis of the deposited data

Results flagged for a closer look

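A signal lay outside the nuclear genes described above. The PBS H3K4me1 list held 5 peaks on the mitochondrial genome, which has no histones and codes for 13 subunits of complexes I, III, IV and V. They touched 7 of these genes, covering mt-Nd1, mt-Nd5, mt-Nd6 and mt-Cytb in full, 83.2% of mt-Nd2, 46.7% of mt-Co1 and 41.9% of mt-Nd4. The LPS H3K4me1 list held 2 such peaks, which touched mt-Nd5 alone (14.2% covered), and both H3K27ac lists 0. Values of the IgG libraries for this region were not analysed here.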

How the results depend on the processing

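Of 102 alternatives to the counts of OXPHOS genes, 83 moved a count by no more than 1.5 times and 19 by more. The 83 include every alternative for PBS H3K27ac. That count was 1 gene, with the strongest peak of its list, and could hardly move. A −log10 q of at least 5 left 3 genes with LPS H3K27ac within 1 kb (from 9) and 6 within 10 kb (from 14). It left 6 with PBS H3K4me1 within 1 kb (from 18), 29 within 10 kb (from 49), and 2 with H3K4me1 in both lists (from 13). The shares of all coding genes fell too, to 1.89% and 3.3% for LPS H3K27ac within 1 kb and 10 kb. For PBS H3K4me1 they fell to 8.29% and 29.7%. A fold enrichment of at least 5 left 4, 7 and 11 genes for LPS H3K27ac within 1 kb and 10 kb and PBS H3K4me1 within 1 kb. Of all coding genes it left 3.43%, 6.19% and 11.1%. For both H3K4me1 lists it left 7 OXPHOS genes. Under either limit LPS H3K27ac remained at 1 gene of complex I, 1 of complex IV and 0 of complex V, and H3K4me1 of either list at 4 genes of complex V. The −log10 q limit left 1 gene of complex III with LPS H3K27ac. Keeping peaks whose nearest coding TSS is the OXPHOS gene's left 5 and 8 genes with LPS H3K27ac within 1 kb and 10 kb, and 4.33% and 6.73% of all coding genes. A window of 2000 bp gave 44 of 84 genes for LPS and 30 of 84 for PBS H3K4me1, beside 33.2% and 24.7% of all coding genes. Restriction to the 48 genes with CpG-rich promoters gave 5 (LPS H3K27ac), 16 (LPS H3K4me1) and 11 (PBS H3K4me1) genes within 1 kb, and 6, 34 and 28 within 10 kb; this follows from the smaller set. For the other changes the cause was not tested. Sdhc stayed the 1 gene with PBS H3K27ac in every alternative run. No paired analysis was possible because each group has 1 library. Peaks with 8 to 18 fragments at the summit carry the H3K27ac results, so a mark without a called peak may have been missed at this depth.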
